A study of Homo sapiens with 8 samples.

Results

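Glycogen is the branched glucose polymer in which cells store carbohydrate, and the genes described here encode the enzymes and targeting proteins that build and break it down. The genes were chosen by name, as the entries of the gene body and transcription start site (TSS) count tables whose symbol was GYG1, GYS1, GBE1, UGP2, PGM1, PPP1R3B, PPP1R3C, PYGL or PYGB. These 9 genes were all present among the 23193 genes counted, and 8 of the 9 passed the filter on low counts in both tables, the exception being PPP1R3C. Nascent transcription was measured by PRO-seq, a nuclear run-on assay whose reads mark engaged RNA polymerase II (RNAPII) rather than accumulated mRNA, in HCT116, an established human colorectal carcinoma line. The groups were wild-type (WT) cells in normoxia, WT cells after 90 min of hypoxia (1% O2), HIF1A-/- cells in normoxia and HIF1A-/- cells after the same hypoxia, with 2 independent cultures each and 8 libraries in all. Every culture, controls included, received DMSO as vehicle. HIF1A encodes the oxygen-regulated subunit of the transcription factor HIF1, and the HIF1A-/- line carries a deletion with stop codons made by adeno-associated virus-mediated homologous recombination. Each genotype was represented by a single line, so an effect of the lost gene and any other difference between the lines cannot be told apart.

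In textbook terms, PGM1 interconverts glucose-6-phosphate and glucose-1-phosphate, UGP2 turns the latter into UDP-glucose, glycogenin (GYG1) primes a new particle, glycogen synthase (GYS1) lengthens the chains, and the branching enzyme (GBE1) adds the branch points. The regulatory subunits PPP1R3B and PPP1R3C bring protein phosphatase 1 to the glycogen particle, where it activates the synthase and inactivates the phosphorylase. The phosphorylases PYGL and PYGB release glucose-1-phosphate, PYGL being the liver form and PYGB the brain form. Glycogen accumulates in many cultured cells during prolonged hypoxia, and GYS1, GBE1 and PPP1R3C are among the genes described as HIF targets in other cells.

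Gene body totals ran from 18125234 to 23622392 reads per library and TSS totals from 2783581 to 5966348. Values are given as counts per 1000000 reads (CPM) scaled by TMM factors, or as RPKM where genes are compared per length. All 8 epithelial marker genes passed the filter on low counts, although the intestinal marker VIL1 was at or near 0 CPM throughout, and the leukocyte, endothelial, hepatocyte and muscle markers PTPRC, CD3E, PECAM1, ALB and MYH1 were also at or near 0. Of the 9 markers of other cell types the remaining 4 (COL1A1, PDGFRB, GYS2 and PYGM) passed the filter, and all 9 summed to 57.3 and 61.5 CPM in normoxic and 65.3 and 76.0 CPM in hypoxic WT libraries and to 52.8 to 77.3 CPM in HIF1A-/- libraries. Whether these reads have a part in the results below was not tested. Nascent reads over HIF1A itself were similar in both genotypes, at 130 to 175 CPM, and since the deletion covers little of the gene they do not check the genotype.

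The start regions of 4 members are shown because they span the range found in a search for the HIF core motifs ACGTG and GCGTG on both strands. The search covered 250 bases before to 50 bases after each counted start site, and 53.0% of all 23193 windows of this length held at least 1 match, 25.9% at least 2. The sequences were read from the GRCh37 genome, the build of the counts, each from 200 bases before the start site through its first 10 bases, on the gene's own strand. Capitals mark the motif or its reverse complement, CACGT or CACGC, and the 2 copies overlap where CACGTG is read on both strands.
GYS1 (chr19:49496601-49496810, minus strand): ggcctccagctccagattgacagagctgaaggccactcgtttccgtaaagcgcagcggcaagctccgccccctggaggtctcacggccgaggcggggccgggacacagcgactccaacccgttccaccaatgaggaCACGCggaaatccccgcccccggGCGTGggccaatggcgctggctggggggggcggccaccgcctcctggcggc
GBE1 (chr3:81810941-81811150, minus strand): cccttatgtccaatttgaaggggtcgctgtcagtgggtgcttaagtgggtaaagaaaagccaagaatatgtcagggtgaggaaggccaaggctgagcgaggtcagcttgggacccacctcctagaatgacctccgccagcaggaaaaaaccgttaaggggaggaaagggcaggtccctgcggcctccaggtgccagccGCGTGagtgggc
PPP1R3C (chr10:93392849-93393058, minus strand): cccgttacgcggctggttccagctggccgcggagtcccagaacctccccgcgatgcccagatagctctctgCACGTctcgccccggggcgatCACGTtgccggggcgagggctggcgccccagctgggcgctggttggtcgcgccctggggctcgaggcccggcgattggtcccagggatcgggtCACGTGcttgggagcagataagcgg
PYGL (chr14:51411239-51411448, minus strand): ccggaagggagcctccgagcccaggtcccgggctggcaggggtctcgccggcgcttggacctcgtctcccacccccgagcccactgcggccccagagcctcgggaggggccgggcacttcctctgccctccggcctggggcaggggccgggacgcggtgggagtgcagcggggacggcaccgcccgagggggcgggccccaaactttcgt

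Over the whole window, 6 of the 9 members held at least 1 match, against 53.0% of all windows. PPP1R3C held 5 matches, all ACGTG, of which 2 overlapped in 1 CACGTG, and PPP1R3B 4, which formed 2 overlapping pairs. Each CACGTG counts as 2 matches, here and in the shares of all windows. GYS1 and PYGB held 3 each, all GCGTG, GBE1 held 1 of each kind, and UGP2 held 1 GCGTG. No match was found in the windows of PYGL, PGM1 or GYG1, which says only that these letters are absent there. The window of PGM1 surrounds an internal start, 29804 bp downstream of its most upstream annotated coding start, which was not searched. UGP2 also has an annotated coding start 925 bp upstream of the counted one, outside its window.

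**Figure D1:**
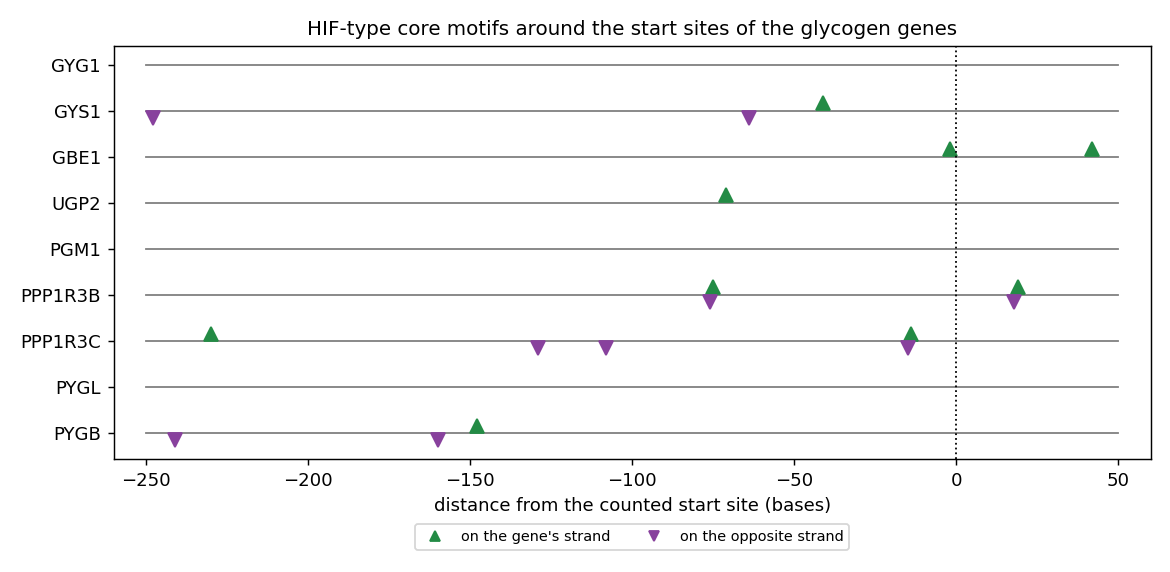
Positions of the HIF core motifs (triangles) from 250 bases before to 50 bases after the counted start site of each of the 9 genes, as the distance in bases of the first matched base from the start site. Upward triangles lie on the gene's strand and downward triangles on the opposite strand, and PPP1R3C has the most matches with 5, while GYG1, PGM1 and PYGL have none.

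In normoxic WT cells the 8 tested genes lay in the middle of the range of transcribed genes. GYS1 had the highest gene body density at 3.31 ± 0.419 RPKM (SD, n = 2), followed by PYGL at 3.15 ± 0.407, and these neighbours did not differ beyond their spread. PYGB followed at 2.18 ± 0.129 and PPP1R3B at 1.79 ± 0.339, again with overlapping intervals of 1 SD. UGP2 at 1.27 ± 0.0821, GYG1 at 1.07 ± 0.00206 and PGM1 at 0.774 ± 0.118 each lay below the gene before by more than those intervals. The lowest was GBE1 at 0.431 ± 0.0126 RPKM, at the 27.6 percentile of the 16686 gene bodies tested, against the 79.5 percentile for GYS1. The median of all tested gene bodies was 1.31 RPKM. GBE1 is also by far the longest of the group, with a counted gene body of 271 kb, so that its low density still gave 1991 to 6665 reads per library. In hypoxic WT cells PPP1R3B had the second highest mean, at 4.62 ± 1.43 RPKM, between GYS1 at 6.06 ± 0.748 and PYGL at 4.20 ± 0.619. Its interval of 1 SD overlapped those of both, so it did not differ from either beyond its spread.

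**Figure D2:**
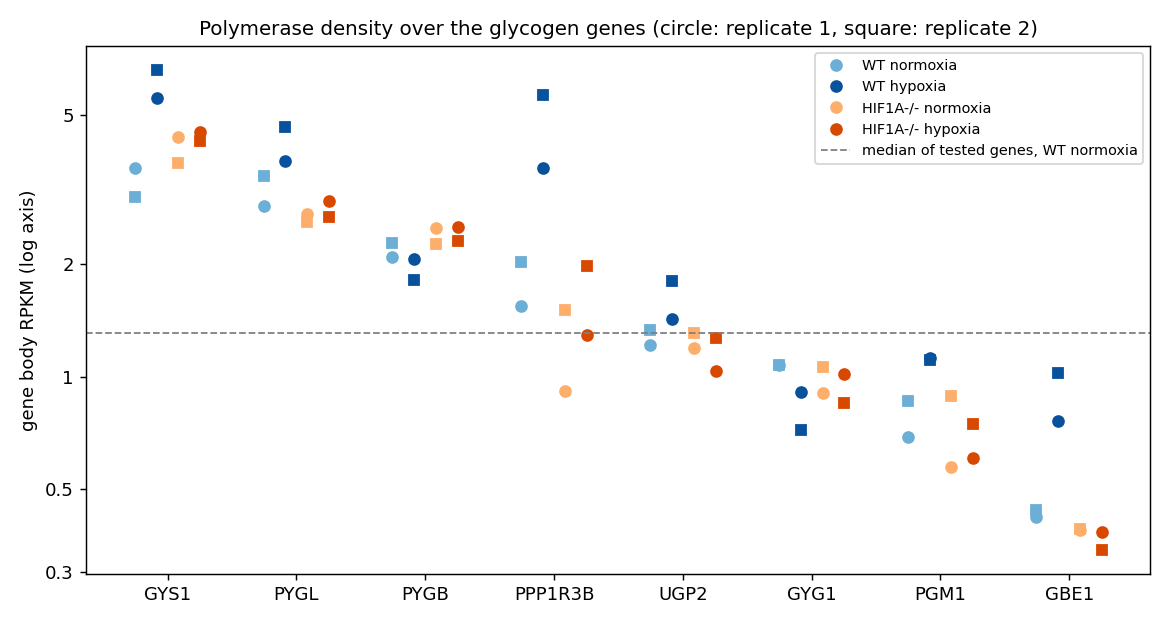
Gene body density in RPKM (log axis) of the 8 tested genes in every library, ordered by the median over the 8 libraries. Colours mark the groups, circles replicate 1 and squares replicate 2, and the dashed line is the median of all tested gene bodies in normoxic WT cells, 1.31 RPKM. The hypoxic WT libraries are the highest of their gene for GYS1, PYGL, PPP1R3B, UGP2, PGM1 and GBE1.

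The first comparison asked which of the genes changed their transcription within 90 min of hypoxia in WT cells. GBE1, the branching enzyme (chromosome 3, gene body 81538849 to 81809949, minus strand), rose 2.07-fold. Its gene body level was 114 and 119 CPM in the normoxic WT libraries and 206 and 277 CPM in the hypoxic ones. Both hypoxic WT libraries lay above every other library, since HIF1A-/- cells had 106 and 106 CPM in normoxia and 104 and 93.4 CPM in hypoxia. The log2 fold change in WT cells was 1.05 with a standard error of 0.158 (edgeR quasi-likelihood, adjusted p = 0.058, or 0.00733 with the replicate number as a block). In such bulk libraries a stronger response per cell and a larger number of responding cells cannot be told apart. GBE1 was called in 12 of 15 alternative settings. The call was lost without replicate 2 of WT hypoxia (log2 fold change 0.83, adjusted p = 0.313), and without replicate 1 or 2 of WT normoxia (log2 fold changes 1.02 and 1.08, adjusted p = 0.708 and 0.569).

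GYS1, the muscle-type glycogen synthase expressed in most tissues (chromosome 19, 49471381 to 49495609, minus strand), had 87.5 and 73.1 CPM in the normoxic WT libraries and 134 and 159.7 CPM in the hypoxic ones. HIF1A-/- cells had 106 and 90.3 CPM before and 109 and 103 CPM after hypoxia, so the hypoxic WT libraries were again the highest, and the normoxic WT libraries were the lowest. The log2 fold change in WT cells was 0.87 (standard error 0.155), a 1.83-fold difference that just missed the threshold (adjusted p = 0.108 from edgeR). The block fit called it (adjusted p = 0.0137), as did 8 of the 15 alternative settings in all, whose adjusted p ran from 8.0e-07 to 0.85. Among those 8 were DESeq2 (adjusted p = 0.000288), library totals in place of TMM (adjusted p = 0.0703), and the fits without replicate 1 or 2 of normoxic HIF1A-/- cells (adjusted p = 0.0883 and 0.0922).

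The enzymes that supply the synthase gave smaller differences. UGP2 (chromosome 2, 64070014 to 64118696, plus strand) had 59.0 and 64.6 CPM in normoxic WT libraries, 69.1 and 87.7 CPM in hypoxic WT libraries, and 50.2 to 63.6 CPM in the 4 HIF1A-/- libraries. PGM1 (chromosome 1, 64089887 to 64125916, plus strand) gave 24.9 and 30.9 CPM, then 40.4 and 39.8 CPM, and 20.6 to 31.9 CPM in HIF1A-/- cells. For both genes the hypoxic WT libraries were the 2 highest of the 8. Neither passed the test in WT cells, with log2 fold changes of 0.34 for UGP2 and 0.52 for PGM1 and adjusted p = 0.897 for both from edgeR (0.115 and 0.11 with the block). GYG1, the primer of glycogen synthesis (chromosome 3, 148710195 to 148745456, plus strand), went the other way, with 37.8 and 37.9 CPM in normoxic and 32.1 and 25.4 CPM in hypoxic WT libraries. Its log2 fold change of -0.40 (standard error 0.177) did not pass the test either (adjusted p = 0.897 from edgeR, 0.177 with the block), and its HIF1A-/- libraries, at 30.0 to 37.4 CPM, overlapped the hypoxic WT libraries and lay just below the normoxic ones.

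**Figure D3:**
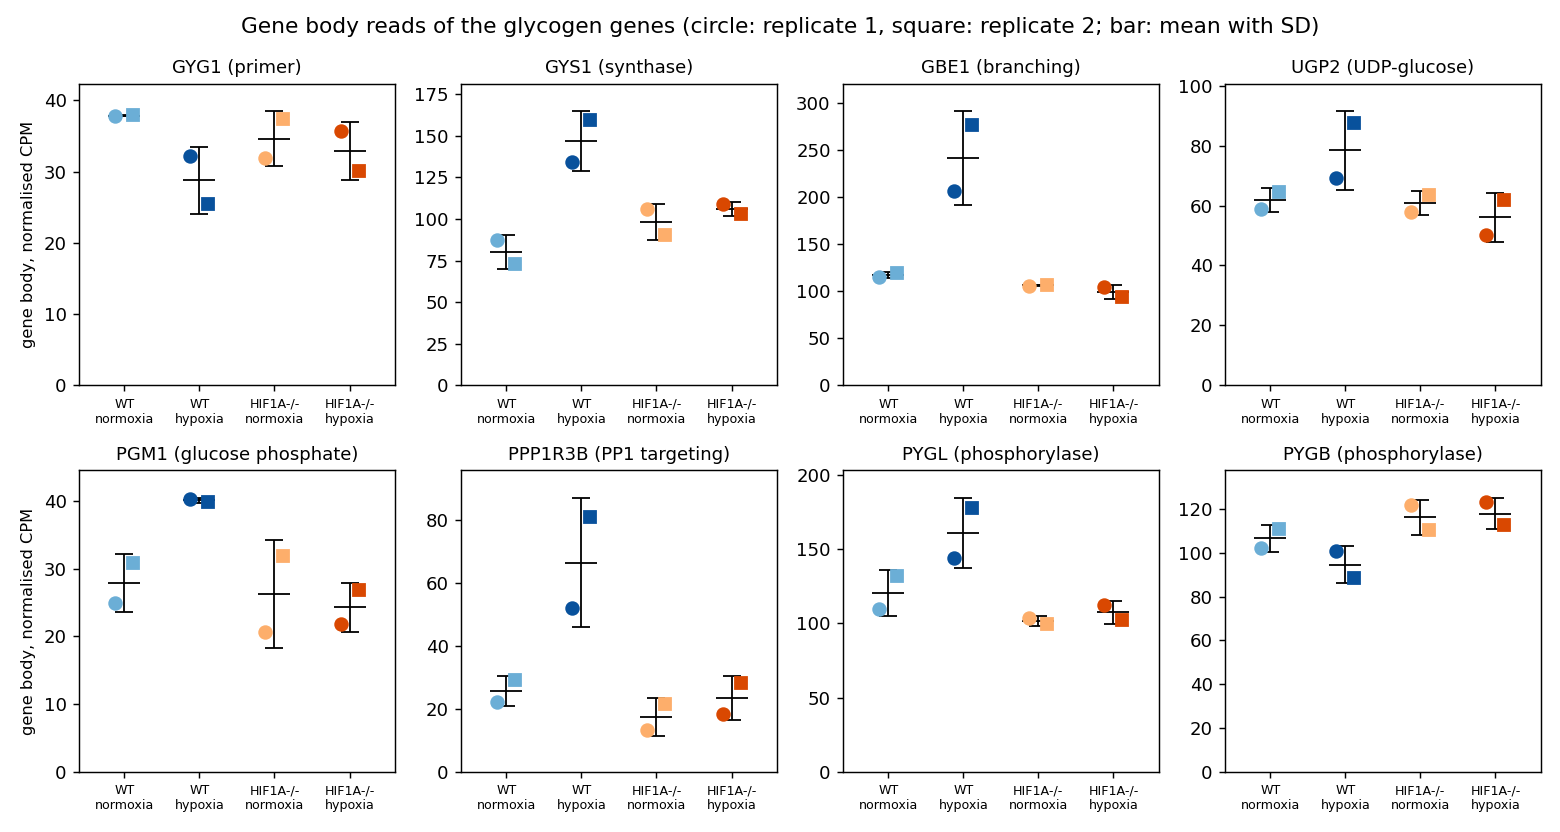
Gene body level in normalised CPM of the 8 tested genes in each library, with groups on the horizontal axis, circles for replicate 1, squares for replicate 2, and bars for the mean with SD (n = 2). GBE1 rises from 114 and 119 CPM to 206 and 277 CPM in WT cells, and the hypoxic WT libraries are also the highest for GYS1, UGP2, PGM1, PPP1R3B and PYGL but the lowest for PYGB.

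Of the regulatory subunits, PPP1R3B (chromosome 8, 8993763 to 9008151, minus strand) had the largest fold difference among the tested members in WT cells. Its level was 22.3 and 29.1 CPM in normoxic WT libraries and 52.0 and 81.1 CPM in hypoxic ones. The HIF1A-/- libraries had 13.2 and 21.6 CPM before and 18.5 and 28.4 CPM after hypoxia, so replicate 2 was above replicate 1 in every group and both hypoxic WT libraries were above all others. The log2 fold change in WT cells was 1.37 with a standard error of 0.331 (adjusted p = 0.384 from edgeR), and with the replicate block it was 1.35 with a standard error of 0.114 (adjusted p = 0.000822). Between same-numbered libraries the log2 ratios were 1.22 and 1.48. DESeq2 with and without the block also called the gene, and the other 12 of the 15 alternative settings did not.

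PPP1R3C (chromosome 10, 93388197 to 93391857, minus strand) was hardly transcribed. Its gene body had 1 read in each normoxic WT library, 0 and 1 in the hypoxic WT libraries, 1 and 0 in the normoxic HIF1A-/- libraries and 0 in both hypoxic ones, and its TSS region had 0 in all 8 libraries. All groups lay at or under a floor of 3 counts per library, which covers counting error only, so no fold change was calculated and a response to hypoxia was not detectable at this depth. Its start region held the most core motif matches of the 9 genes, as shown above.

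Of the phosphorylases, PYGL (chromosome 14, 51371934 to 51410247, minus strand) had 109.6 and 132 CPM in normoxic WT libraries, 144 and 178 CPM in hypoxic WT libraries, and 99.3 to 113 CPM in the 4 HIF1A-/- libraries. PYGB (chromosome 20, 25229706 to 25278648, plus strand) gave 102 and 111 CPM, then 101 and 88.6 CPM, and 111 to 123 CPM in HIF1A-/- cells. The hypoxic WT libraries were thus the highest for PYGL and the lowest for PYGB. Neither gene passed the test in WT cells, with log2 fold changes of 0.42 (standard error 0.153) for PYGL and -0.17 (standard error 0.130) for PYGB and adjusted p = 0.897 for both from edgeR (0.125 and 0.343 with the block). ABHD12 lies on the opposite strand over part of the PYGB gene body in the annotation, and although the labels call the libraries strand-specific, whether the deposited counts used strand was not tested. The limit is not particular to PYGB. Opposite-strand entries also lie over the gene bodies of GBE1, PPP1R3B, UGP2 and PYGL. RUVBL2 starts on the opposite strand near the GYS1 start site, and PPP1R3B-DT near that of PPP1R3B.

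Counted together, 1 of the 8 tested members (GBE1) was called in WT hypoxia, and it was higher, against 0.431% of all gene bodies tested. With the replicate block 3 were called higher (GBE1, GYS1 and PPP1R3B) and none lower, against 5.51% of all gene bodies, and DESeq2 without a block called the same 3, against 1.05%. The median log2 fold change of the 8 was 0.47, against -0.02 over all gene bodies, and 6 of the 8 lay above 0. In 6 of the 8 both hypoxic WT libraries were above both normoxic ones, against 18.3% of all gene bodies. The share of gene bodies whose hypoxic WT libraries were the highest of all libraries was not computed. For comparison, the 10 glycolytic enzymes from GPI to PKM, the pathway that glucose released from glycogen can enter, had a median of 1.40, with 7 called and all 10 called with the block. These members and lists were picked by function with earlier results of the data known, so their counts describe the genes and test nothing about the pathway.

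In HIF1A-/- cells the same 90 min of hypoxia gave no call among the members. edgeR called 0 of 8, with 0 at an unadjusted p under 0.05, DESeq2 called 0, and edgeR with the block called 0. Over all gene bodies the corresponding shares were 0.00%, 0.0479% and 0.0360%. The median log2 fold change was -0.03, with 4 genes above and 4 below 0, and the largest value was 0.43 for PPP1R3B (standard error 0.331). With the block PPP1R3B was at 0.44 (standard error 0.118, adjusted p = 0.293 from edgeR), the 1 member with an unadjusted p under 0.05 in that fit. Of all 16686 gene bodies 920 were higher and 685 lower at that level in the same fit. Between same-numbered libraries the log2 ratios of PPP1R3B were 0.49 and 0.39, so it rose in both pairs without being called. GBE1 gave -0.10 and GYS1 0.11, each with a standard error near the size of the value or above it (0.157 and 0.154). Only GBE1 had groups that did not overlap, with both hypoxic libraries below both normoxic ones by a small margin, and 23.4% of all gene bodies showed such separation one way or the other in these libraries.

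The difference between the genotypes in the response was tested directly as an interaction. edgeR called 0 of the 8 gene bodies (0.0539% of all were called), and DESeq2 called 1 (0.408% of all). By edgeR 2 had an unadjusted p under 0.05, both above 0, against 210 above and 17 below 0 of all 16686. For GBE1 the WT response exceeded the HIF1A-/- response by 1.15 on the log2 scale (standard error 0.223, adjusted p = 0.451), and the replicate block brought it past the threshold (adjusted p = 0.0697, 0.384% of all gene bodies called) and by DESeq2 with and without it (adjusted p = 3.2e-05 and 0.0058). For GYS1 the difference was 0.76 (standard error 0.218) and for PPP1R3B 0.94 (standard error 0.465), and each was called by DESeq2 with the block alone (adjusted p = 0.047 and 0.009), edgeR giving an adjusted p of 1.00 without the block and 0.336 and 0.109 with it. The remaining 5 genes were called in no setting.

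**Figure D4:**
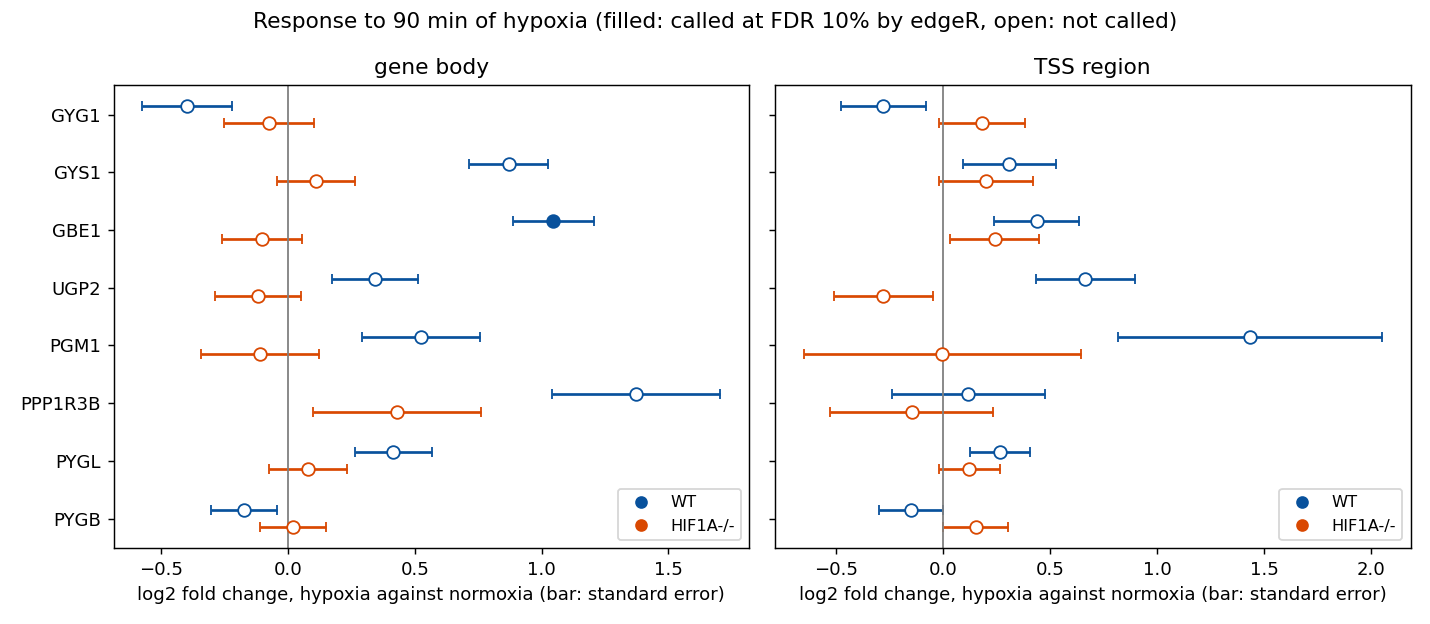
Log2 fold change of hypoxia against normoxia, with its standard error, for the 8 tested genes at gene bodies (left) and TSS regions (right) in WT (blue) and HIF1A-/- cells (orange). Only the filled point, GBE1 at the gene body in WT cells (1.05), was called at an FDR of 10%. PPP1R3B is at 1.37 in the gene body panel and at 0.12 in the TSS panel, and the wide bars of PGM1 at the TSS belong to 3 to 16 reads per library.

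Comparing the genotypes at each oxygen level showed few differences in normoxia and more in hypoxia. In normoxia edgeR called 0 of the 8 gene bodies (1.78% of all), with 0 at an unadjusted p under 0.05, and DESeq2 called 0 (3.78% of all). With the block PPP1R3B was called lower in HIF1A-/- cells, with a log2 difference of -0.59 (adjusted p = 0.0237), where 10.3% of all gene bodies were called. The log2 differences of the other 7 genes ran from -0.25 for PYGL to 0.29 for GYS1.

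In hypoxia GBE1 and PPP1R3B were lower in HIF1A-/- than in WT cells, 2 of 8 members against 4.26% of all gene bodies. GBE1 had 98.8 ± 7.60 CPM (SD, n = 2) in HIF1A-/- cells against 241 ± 50.1 in WT cells, a log2 difference of -1.29 (standard error 0.159, adjusted p = 0.00741 from edgeR) that was called in all 15 alternative settings. PPP1R3B had 23.5 ± 6.97 against 66.5 ± 20.6 CPM, a log2 difference of -1.50 (standard error 0.332, adjusted p = 0.0653), and was called in 9 of 15. For PPP1R3B the call was lost with library totals (adjusted p = 0.102), without replicate 2 of WT hypoxia (log2 difference -1.13, adjusted p = 0.449), without replicate 1 or 2 of HIF1A-/- hypoxia (log2 differences -1.22 and -1.86, adjusted p = 0.367 and 0.103), and without replicate 1 or 2 of WT normoxia (adjusted p = 0.117 and 0.116 with the same log2 difference). With the block 7 of the 8 were called, 6 lower and PYGB higher in HIF1A-/- cells, at a background of 28.2% of all gene bodies. The 4 further genes lower with the block were PYGL (-0.58, adjusted p = 0.0163), PGM1 (-0.73, adjusted p = 0.0141), UGP2 (-0.48, adjusted p = 0.0123) and GYS1 (-0.48, adjusted p = 0.0345), and PYGB was at 0.32 (adjusted p = 0.0553). In 6 of the 8 both hypoxic HIF1A-/- libraries lay below both hypoxic WT libraries, as they did in 24.6% of all gene bodies. This comparison and the WT response share the hypoxic WT libraries, so the 2 are not separate evidence on the same genes.

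At the TSS region, which runs from 50 bases before to 500 bases after the start site and mainly holds paused RNAPII, the WT log2 fold changes in hypoxia were smaller than at the gene body for GYS1 (0.31), GBE1 (0.44) and PPP1R3B (0.12), but larger for UGP2 (0.67) and PGM1 (1.43, from 3 to 16 reads per library). GBE1 had 48.4 and 57.4 CPM in normoxic and 75.7 and 67.7 CPM in hypoxic WT libraries, against 37.3 and 40.2 CPM and then 49.1 and 42.9 CPM in the HIF1A-/- libraries. UGP2 had 48.2 and 69.5 CPM in normoxic and 73.3 and 112.6 CPM in hypoxic WT libraries, against 91.2 and 92.7 CPM and then 76.3 and 75.3 CPM in the HIF1A-/- libraries. In WT cells both hypoxic libraries were above both normoxic ones for GBE1, UGP2, PGM1 and PYGL. In HIF1A-/- cells they were above for GBE1, PYGB and GYG1 and below for UGP2. The share of all TSS regions with such separation was not computed. At PPP1R3B the TSS groups overlapped in both genotypes, with 13.1 and 22.5 CPM in normoxic and 15.6 and 22.8 CPM in hypoxic WT libraries.

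edgeR called none of the 8 TSS regions in any of the 5 comparisons. In WT hypoxia 3 had an unadjusted p under 0.05, all higher. Of all 15212 TSS regions 371 were higher and 240 lower at that level, and 0.0460% were called. In HIF1A-/- hypoxia there was none among the members, with 0.00% of all called. For the difference between the genotypes in the response it was 1, against 125 above and 55 below 0 of all, with 0.00657% called. For HIF1A-/- against WT cells in normoxia it was 1, against 648 higher and 567 lower, with 0.657% called. In hypoxia it was 2, against 1118 higher and 961 lower, with 1.10% called. DESeq2 called 0 in each. With the replicate block UGP2 was called higher in WT hypoxia, at a log2 fold change of 0.66 (adjusted p = 0.0852, 1.01% of all called), and higher in HIF1A-/- than in WT cells in normoxia, also at 0.66 (adjusted p = 0.0392, 4.29% of all called). UGP2 has an annotated coding start 925 bp upstream of the counted one, so its TSS region can also hold RNAPII from that start. In hypoxia the block gave lower values in HIF1A-/- cells for GBE1 (-0.64, adjusted p = 0.0256) and PYGL (-0.39, adjusted p = 0.0481), with 14.4% of all TSS regions called. PGM1 had 3 to 16 TSS reads per library, and its counted start site lies 29804 bp downstream of the most upstream annotated coding start. Its TSS region can therefore also hold RNAPII that comes from the upstream start, and the sources were not separated. The same limit holds for its TSS to gene body ratio below.

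The ratio of read density at the TSS to that over the gene body, the pausing index, was then compared within libraries. In normoxic WT cells it was highest for PYGB at 230 ± 18.4 and GBE1 at 223 ± 20.4 (SD, n = 2), which did not differ beyond their spread, and lowest for PGM1 at 2.29 ± 0.892. The median over all genes was 44.1 to 47.6 in the 8 libraries, so GBE1, PYGB and GYG1 (181 ± 16.4) had a high index among all genes, at the 88.2 to 92.0 percentiles. PPP1R3B had a low index, with 15.4 and 20.1 in normoxic and 7.8 and 7.3 in hypoxic WT libraries. In HIF1A-/- cells it was 27.3 and 16.6 before and 13.5 and 13.7 after hypoxia, so the hypoxic libraries lay below the normoxic ones in both genotypes. GBE1 had 208 and 237 in normoxic and 181 and 120.4 in hypoxic WT libraries, but 173 and 186 before and 232 and 226 after hypoxia in HIF1A-/- cells, so the hypoxic libraries were the lower ones in WT cells and the higher ones in HIF1A-/- cells. The share of all genes whose ratios separated in this way was not computed.

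edgeR called no ratio among the 8 members in WT hypoxia, where 0.193% of all genes were called. At an unadjusted p under 0.05 there were 3 members (GYS1, GBE1 and PPP1R3B), all lower. Of all 14494 genes 258 were higher and 516 lower at that level. DESeq2 was not run on the ratio. The log2 changes of the ratio in WT cells were -1.26 for PPP1R3B (standard error 0.304, adjusted p = 0.293), -0.63 for GBE1 (standard error 0.225, adjusted p = 0.858) and -0.62 for GYS1 (standard error 0.239, adjusted p = 0.858). PPP1R3B passed with the block (-1.27, adjusted p = 0.0616, 0.545% of all called), with no filter on low counts (adjusted p = 0.0277), and without replicate 1 or 2 of normoxic HIF1A-/- cells (adjusted p = 0.0877 and 0.0928). In HIF1A-/- hypoxia edgeR called 0 with 0 at an unadjusted p under 0.05 (0.00% of all genes). For the difference between the genotypes in the response it called 0 (0.0207% of all), and for HIF1A-/- against WT cells in normoxia 0 (0.0138% of all). Each of these comparisons had 1 member at an unadjusted p under 0.05. At that level 78 of all genes were above and 205 below 0 for the response, and 408 above and 513 below in normoxia. The opposite order of the GBE1 ratio gave a difference between genotypes of -0.96 on the log2 scale (standard error 0.327) that was not called (adjusted p = 1.00 from edgeR, 0.929 with the block).

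**Figure D5:**
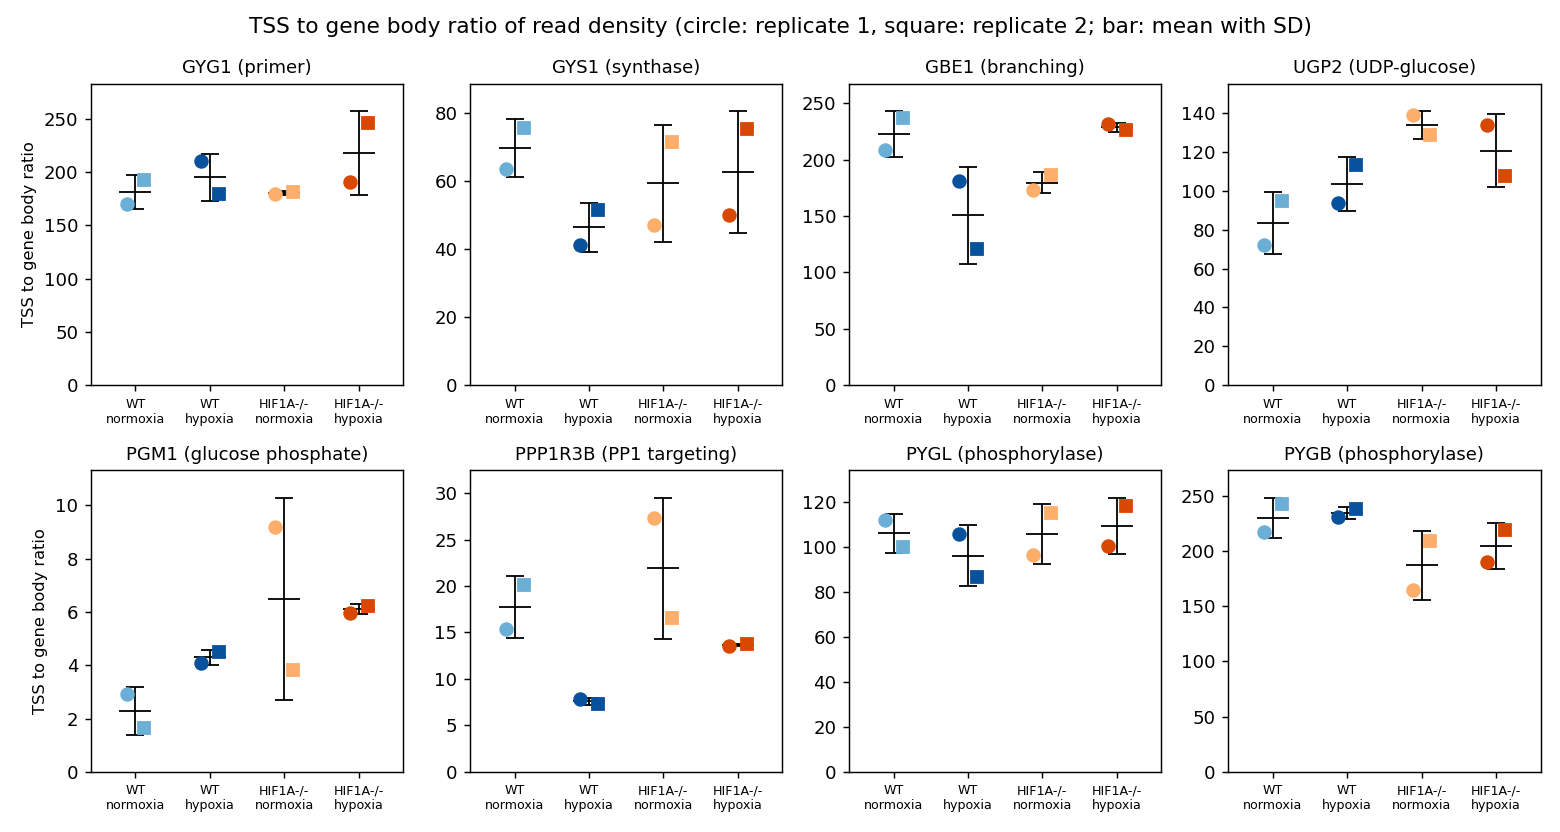
TSS to gene body ratio of read density, with no unit, for the 8 tested genes in each library, with groups on the horizontal axis, circles for replicate 1, squares for replicate 2, and bars for the mean with SD (n = 2). PPP1R3B is at 15.4 and 20.1 in the normoxic and at 7.8 and 7.3 in the hypoxic WT libraries, and PGM1, with few TSS reads, lies between 1.7 and 9.2.

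A wider list of 30 genes of glycogen metabolism and its control, all in the tables, was examined beside the members, and 23 of these gene bodies passed the filter. It held the liver synthase GYS2, the muscle phosphorylase PYGM, other phosphatase subunits, phosphorylase kinase and glycogen synthase kinases. In WT hypoxia edgeR called 0 of the 23 (0.431% of all gene bodies), DESeq2 called PPP1R3E alone (1.05% of all), and their median log2 fold change was -0.15. By edgeR 2 were higher and 1 lower at an unadjusted p under 0.05, against 585 higher and 184 lower of all 16686. With the block 3 of the 23 were called, against 5.51% of all gene bodies, the phosphatase targeting subunit PPP1R3E and the catalytic subunit PPP1CB higher and the kinase GSK3A lower. In HIF1A-/- hypoxia edgeR and DESeq2 called 0, with 2 at an unadjusted p under 0.05 by either tool, and for the difference between the genotypes both called 0, with 1. By edgeR 175 of all gene bodies were higher and 172 lower at that level in HIF1A-/- hypoxia. For the difference 210 were above and 17 below 0. Between the genotypes in hypoxia edgeR called PGM2 and PHKA1, both lower in HIF1A-/- cells, 2 of 23 against 4.26% of all gene bodies, and DESeq2 called 7 of 23 against 7.86%. With the block 6 of the 23 were called higher and 5 lower in HIF1A-/- cells, against 28.2% of all gene bodies. PGM2, which acts mainly on pentose phosphates, had 55.2 and 56.6 CPM in hypoxic WT cells and 37.2 and 38.6 CPM in hypoxic HIF1A-/- cells, a log2 difference of -0.56 (standard error 0.124, adjusted p = 0.0649 from edgeR). PHKA1, a regulatory subunit of phosphorylase kinase, had 53.7 and 59.8 CPM against 35.7 and 32.1 CPM, a log2 difference of -0.74 (standard error 0.137, adjusted p = 0.0337). Both genes were also lower in normoxic HIF1A-/- libraries, at -0.39 for PGM2 and -0.42 for PHKA1 on the log2 scale, without being called there except with the block (10.3% of all called).

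The gene bodies whose level followed that of GBE1 most closely over the 8 libraries were FAM162A (Pearson's r = 0.992), TFB1M (r = 0.991) and KDM4C (r = 0.991), given here as a description of likeness over libraries that fall into the hypoxic WT pair and the rest. FAM162A, which encodes a mitochondrial protein, had a WT log2 fold change of 2.52, and KDM4C, a histone demethylase gene, 1.01, while TFB1M, which encodes a mitochondrial rRNA methyltransferase, had 0.59. FAM162A and KDM4C were called in WT hypoxia (adjusted p = 0.00537 and 0.0890 from edgeR), and TFB1M was not (adjusted p = 0.436). In HIF1A-/- cells their log2 fold changes were -0.14, -0.15 and -0.08 in the order FAM162A, KDM4C and TFB1M.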

How the data were processed

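Per the study's methods, the authors joined 2 sequencing runs of each sample, removed adapters and poor bases (BBDUK, FASTQ-MCF), and mapped reads to GRCh37 by HISAT2 2.1.0 in unspliced mode. Alignments with a mapping quality above 10 (SAMtools 1.5) were counted by featureCounts (Subread 1.6.2). These versions are as in the submitters' processing notes. The deposited values are raw counts per gene, in a TSS region (551 bp) and in a gene body region from 1001 bp after the start site to the gene end, with 1 start site and 1 body per gene. A gene with several start sites is therefore represented by 1 of them.

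Samples were grouped by the genotype and oxygen level in their labels, and columns were matched to samples by name. Genes above 0.5 CPM in at least 2 libraries were kept (16686 gene bodies and 15212 TSS regions, 14494 genes in both). The test was edgeR's quasi-likelihood F test (version 4.0.16, R 4.3.3, glmQLFit and glmQLFTest) on TMM-normalised counts, with 1 fit of the 4 group means for each table. Benjamini-Hochberg adjustment covered every gene tested, and the call threshold was an FDR of 10%. Where the text gives an adjusted p without a tool it is from this test. For the pausing index, TSS and gene body counts entered as 16 columns with a term per library. The design of the ratio comparison between the genotypes' responses was added after values had been seen. The fits were also run on simulated data with known changes. Those data held no deviation shared by same-numbered libraries, so the runs do not address the pairing described below.

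The 5 comparisons set hypoxic against normoxic cells of either genotype, these responses against each other, and HIF1A-/- against WT cells in normoxia and in hypoxia. Deviations from the group means correlated between same-numbered libraries for each of the 6 pairs of groups (r from 0.484 to 0.790 over gene bodies, 0.216 to 0.519 over TSS regions). On this basis, and since the labels share the numbers, a fit with the replicate number as a block treated same-numbered libraries as pairs. The reported fit did not use this pairing, so deviations shared by same-numbered libraries remain in its spread. The block fit is given beside it where it changes the call of a member. The design text describes 2 independent biological replicates per group, and the p-values measure the spread between them. Alternatives were DESeq2 1.42.0 with and without the block, library totals or RLE factors, no filter, only the 2 groups compared, and leaving out each library. The members and gene lists were chosen with earlier results of these data known, and 2 genes of the wider list are not reported here and are left out of its counts. All members are named, and of the wider list those called in a gene body comparison by edgeR, with the genes called only with the block or by DESeq2 in WT hypoxia named after their values were seen. Floors of 3 counts cover counting error only, since PCR copies of a molecule are not independent reads.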

Additional observations from a re-analysis of the deposited data

How the results depend on the processing

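Of 81 results for single members and 1171 comparisons of them with an alternative setting, 1087 kept their direction and their side of the threshold, 44 passed it only in the alternative, 9 passed it only in the reported fit and 31 changed sign. The number of members called at the gene body in WT hypoxia (1 as reported) was 3 with DESeq2, 2 with library totals, 2 with RLE, 2 with no filter on low counts, 3 with the replicate block, 5 with DESeq2 and the block, and 0 to 2 when 1 library was left out. For the difference between the genotypes at the gene body it was 0 as reported, 1 with DESeq2, 1 with the replicate block and 3 with DESeq2 and the block. For HIF1A-/- against WT cells at the gene body it was 0 in normoxia, but 1 with the replicate block and 1 with DESeq2 and the block. In hypoxia it was 2, but 4 with DESeq2, 1 with library totals, 7 with the replicate block, 7 with DESeq2 and the block, and 1 to 3 when 1 library was left out, PGM1 being the third without either replicate of HIF1A-/- normoxia. At the TSS region it was 0 as reported, but with the replicate block 1 in WT hypoxia, 1 for the genotypes in normoxia and 2 for the genotypes in hypoxia, where DESeq2 with the block and the fit of only the 2 groups gave 1 each. For the TSS to gene body ratio in WT hypoxia it was 0, but 1 with no filter, 1 with the replicate block, and 0 to 1 when 1 library was left out. Among the members, the block changed no call beyond those given here and beside the results.

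Every change of sign in this tally concerned a value that was not called. The tally leaves out 31 member values given only within counts, namely the TSS response differences between the genotypes and all ratio values outside WT hypoxia but the GBE1 response difference, and the range of 11 of these over the settings also crossed 0. When 1 library was left out, the log2 fold change of HIF1A-/- cells in hypoxia at the gene body ran from -0.40 to 0.24 for PGM1, -0.28 to 0.045 for UGP2, -0.047 to 0.078 for PYGB and -0.20 to 0.045 for GYG1. The normoxic genotype difference at the gene body ran from -0.43 to 0.23 for PGM1, -0.094 to 0.080 for UGP2 and -0.25 to 0.019 for GYG1. At the TSS region the WT response ran from -0.0043 to 0.56 for GYS1, -0.22 to 0.55 for PPP1R3B and -0.28 to 0.00072 for PYGB, and the HIF1A-/- response from -0.082 to 0.43 for GYS1, -0.52 to 0.12 for PPP1R3B and -0.32 to 0.31 for PGM1. The normoxic genotype difference there ran from -0.15 to 0.22 for GYS1 and -0.71 to 0.067 for PPP1R3B, and the hypoxic one from -0.35 to 0.24 for GYS1 and -0.58 to 0.035 for UGP2. The ratio in WT cells ran from -0.073 to 0.075 for PYGB and -0.069 to 0.21 for GYG1. The HIF1A-/- response of PGM1 at the TSS region also turned with library totals (0.0020) and with the replicate block (0.015), and the WT ratio of PYGB with no filter on low counts (0.0055). Why these settings moved the values was not tested. Each group had 2 libraries, and the TSS regions of PGM1 and PPP1R3B held few reads, 3 to 16 and 29 to 133 per library.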
